A study of Rattus norvegicus with 22 samples.

Results

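The genes described here are 32 rat genes of fatty acid uptake and oxidation. They were chosen by name from the knowledge of the pathway, with earlier results of these data known, and found on the array through their gene names. They are 32 of 26441 genes on the array and are read by 37 of its 30367 probes, of which Acaa1a, Acot2, Cd36, Cpt1b and Hadha have 2 each. Engineered cardiac tissue, a cylinder of heart cells in a matrix gel held by anchors at both ends, was made from embryonic ventricles (Sprague Dawley rats, gestational day 14.5) and cultured for 7 days in medium with fetal bovine serum. From culture day 5, 7 tissues received uniaxial cyclic stretch at 0.5 Hz and 5% elongation for 48 h (stretch), 4 received 10 µM BIRB796, an inhibitor of p38 MAP kinase (BIRB796), 4 received both (stretch with BIRB796), and 7 received neither (control). The tissue is of embryonic cells of several types and is fed by medium rather than blood, so it is a model of immature heart muscle, and no vehicle is named for the tissues without inhibitor. The replicates are called biological, with no tie to a litter or a culture, so p-values measure the spread between these arrays.

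Fatty acids freed from triglyceride outside the cell enter cardiomyocytes through carriers such as CD36, are bound in the cytoplasm by FABP3, and are activated to acyl-CoA. The carnitine shuttle carries them into mitochondria, where the dehydrogenases, hydratases and thiolases of beta oxidation shorten them and the electron transfer flavoprotein passes their electrons to the respiratory chain. The embryonic heart relies mostly on glucose and lactate, and this pathway, driven by PPARα, PGC-1α and ERRα, becomes the main fuel route after birth.

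Each array gave 1 value per probe, written here as the log2 processed signal relative to that array's 75th percentile, so that 0 is the level of a bright probe and negative values are dimmer. Probes of different genes bind with different strength, and levels are compared only between arrays, never between genes. Scanning fell into 3 sessions, the first with 3 stretch and 3 control arrays, the second with 4 stretch arrays alone, and the third with 4 stretch with BIRB796, 4 BIRB796 and 4 control arrays. Between 71.8% and 93.1% of probes on an array were well above background, the lowest share in session 2. Stretch replicates 4 and 5, both of session 2, differed by less than the spread between repeated spots of an array, at 0.77 of it, and were counted as 1 sample. This was the case for 1 of 54 pairs of arrays of a group. The 21 cardiomyocyte markers, among them Myh6 and Tnnt2, were well above background on all 22 arrays, and so were 15 of 16 macrophage, 11 of 15 endothelial and 12 of 14 fibroblast markers. In these mixed tissues fewer cells of a type and less RNA per cell cannot be told apart.

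Of the 32 genes, 30 were well above background on all 22 arrays. Pdk4, the kinase that holds back pyruvate oxidation, was above it on 15 arrays, and Ucp3, a mitochondrial uncoupling protein, was not well above background on any. Ucp3 was left out of the tests, which leaves 31 genes. Its values were -10.10, -10.36, -9.67 and -9.98 in the stretch with BIRB796 arrays, -10.61, -9.73, -10.15 and -10.17 in the BIRB796 arrays and -9.48, -10.80, -10.54 and -9.76 in the control arrays of session 3, with -9.01, -9.43 and -9.31 in the stretch and -9.10, -8.91 and -9.0 in the control arrays of session 1. At that brightness they have no order. Replicates differed in how closely they agreed. The median SD of the 31 genes within a group was 0.12 in stretch with BIRB796, 0.12 in BIRB796 and 0.072 in the control arrays of session 3, 0.31 in stretch and 0.21 in the control arrays of session 1, and 0.49 in the stretch arrays of session 2.

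Stretch alone could be set against control within session 1, and in that comparison no gene of the pathway passed the test. The limma fit called 0 of 23559 genes at an adjusted p under 0.05, which is 0% of genes, and 2.62% of genes had an unadjusted p under 0.05. Of the 31 genes, 1 had one, Lpl. The 31 log2 differences were positive for 17 genes and negative for 14, against 40.8% negative among all genes, with a median of 0.04 for the 31 and 0.06 for all genes. By slide the median was -0.15 on slide 1, -0.34 on slide 2 and 0.41 on slide 3, each of which held 1 stretch and 1 control array, so the direction of the pathway as a whole differed between slides. Lpl, the lipoprotein lipase that frees fatty acids from triglyceride, measured -1.35, -0.38 and -1.13 in the stretch arrays, against 0.15, 0.56 and 0.83 in the control arrays of session 1. All 3 stretch arrays were below all 3 control arrays, which held for 1 of the 31 genes, against 4.17% of all genes. The log2 difference was -1.47 ± 0.32 (SE, 3 arrays each), 2.77-fold lower, with an unadjusted p = 0.00317 and an adjusted p = 1 by limma. It was -1.50, -0.95 and -1.96 on slides 1 to 3, and -1.47 ± 0.25 with the slide as a fixed block (adjusted p = 0.961). Macrophage markers, whose cells can also make Lpl, had a mean level of 0.52 ± 0.49 in the stretch and 1.14 ± 0.56 in the control arrays of session 1 (SD, n = 3 each, range -0.01 to 0.97 and 0.53 to 1.62), 15 of the 16 with a negative difference and none at background on all arrays. Endothelial markers had a mean level of -2.38 ± 0.34 in the stretch and -2.05 ± 0.14 in the control arrays of session 1 (SD, n = 3 each, range -2.77 to -2.15 and -2.21 to -1.96), 12 of the 15 with a negative difference and 4 of the 15 with an unadjusted p under 0.05, against 2 of the 16 macrophage markers. Cardiomyocyte markers had a mean level of 4.67 ± 0.28 in the stretch and 4.46 ± 0.48 in the control arrays of session 1 (SD, n = 3 each). Of the 21, 17 had a positive and 4 a negative difference. None of the markers of these lists was called. The part of any of the lists in the Lpl value was not tested.

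Most other genes of the pathway lay within the replicate spread in session 1. Ppargc1a, which encodes the coactivator PGC-1α, measured -5.46, -4.51 and -4.05 in the stretch arrays, against -4.01, -3.26 and -4.47 in the control arrays of session 1, a difference of -0.77 ± 0.46 (adjusted p = 1). Cpt1a, the liver form of the enzyme that starts the carnitine shuttle, measured -2.04, -1.68 and -1.84 in the stretch arrays, against -1.60, -1.12 and -1.69 in the control arrays of session 1, a difference of -0.38 ± 0.22. Both sets of groups overlapped. Pdk4 measured -6.62, -6.81 and -7.22 in the stretch arrays, against -6.57, -7.40 and -8.16 in the control arrays of session 1, a difference of 0.50 ± 0.42 with overlap. Acadm, the medium-chain acyl-CoA dehydrogenase, measured 1.75, 1.70 and 2.27 in the stretch arrays, against 1.72, 2.17 and 1.57 in the control arrays of session 1. Stretch replicate 3 had the highest value of the session for this gene and for Cpt1b. Hadha, the alpha subunit of the trifunctional protein, measured 0.11, 0.39 and 0.83 in the stretch arrays, against 0.62, 0.83 and 0.56 in the control arrays of session 1. Acadl, the long-chain acyl-CoA dehydrogenase, measured 3.74, 3.67 and 4.17 in the stretch arrays, against 3.66, 3.95 and 3.43 in the control arrays of session 1. Ppara, the fatty acid receptor PPARα, measured -3.68, -3.28 and -3.27 in the stretch arrays, against -3.75, -2.94 and -3.91 in the control arrays of session 1. None of these 3 separated the groups.

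The uptake, activation and electron transfer genes overlapped between stretch and control as well. Cd36, the fatty acid translocase of the cell surface, measured 0.81, 1.26 and 1.89 in the stretch arrays, against 1.57, 1.54 and 1.37 in the control arrays of session 1. Fabp3, the fatty acid binding protein of heart muscle, measured 2.83, 2.72 and 3.91 in the stretch arrays, against 2.73, 3.58 and 2.95 in the control arrays of session 1. For both, the lowest and the highest value of the session came from stretch arrays, the highest from replicate 3. Acsl1, which activates long-chain fatty acids, measured 0.28, 0.73 and 1.47 in the stretch arrays, against 0.57, 1.12 and 0.53 in the control arrays of session 1. Cpt1b, the muscle form of the first shuttle enzyme, measured 1.18, 1.18 and 2.26 in the stretch arrays, against 1.37, 1.89 and 0.73 in the control arrays of session 1. Stretch replicate 3 again stood highest. Etfdh, which hands electrons on to ubiquinone, measured 0.19, 0.42 and 0.79 in the stretch arrays, against 0.65, 0.86 and 0.58 in the control arrays of session 1. Etfb, a subunit of the electron transfer flavoprotein, measured 3.08, 2.73 and 3.61 in the stretch arrays, against 3.07, 3.12 and 2.96 in the control arrays of session 1. Their differences were -0.23 ± 0.21 and 0.09 ± 0.26. Apart from Angptl4 (-0.38 ± 0.29), the differences of genes with no array values given here ran from -0.25 for Hadh to 0.24 for Decr1.

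**Figure D1:**
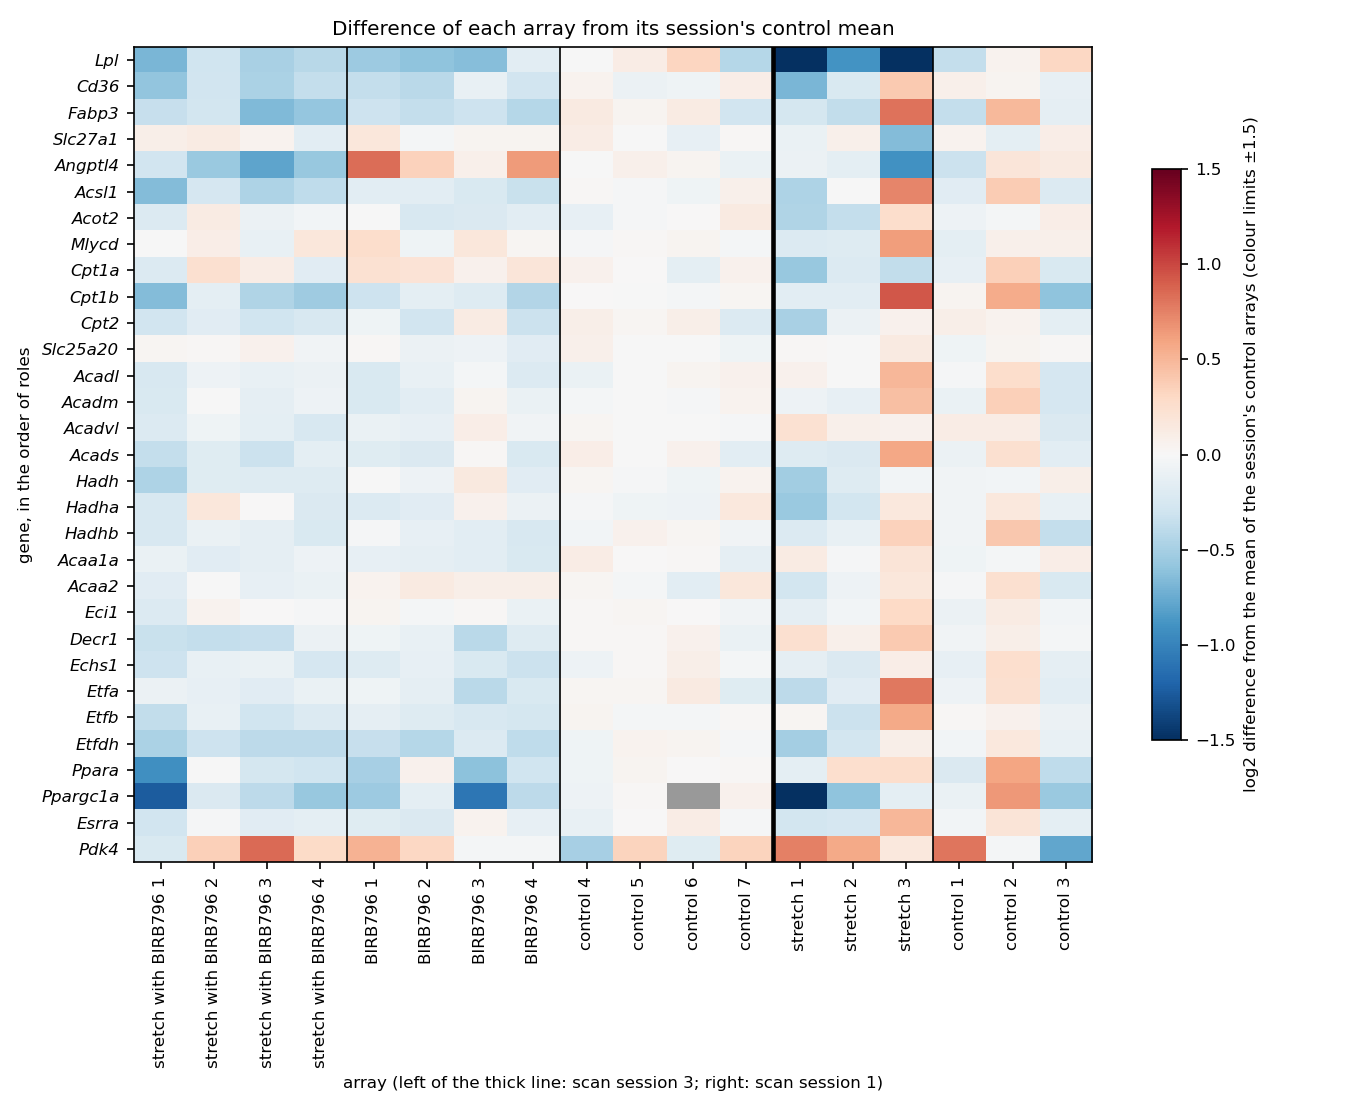
Log2 difference of each array from the mean of the control arrays of its own session (colour, blue lower and red higher, colours limited at 1.5), for 31 genes in the order of their roles. Lpl is blue in all 3 stretch arrays of session 1, most of the other genes change colour between stretch replicates of that session, and the stretch with BIRB796 columns are blue for most genes. The grey cell is a flagged spot of Ppargc1a.

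The comparison of stretch and control changes when all arrays enter. With a term for the array set (session 1 against sessions 2 and 3), 1836 genes and 6 of the 31 were called, all 6 lower: Acot2, Cd36, Etfdh, Hadh, Lpl and Ppargc1a. With no such term 267 genes and 2 of the 31 (Hadh and Lpl) were called, and with the scan session as a term 0 and 0. In the first 2 of these fits the 4 stretch arrays of session 2 are set in part against control arrays of other sessions, so that scan session and stretch cannot be told apart there.

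Within session 3, tissues given stretch with BIRB796 had lower signals of 7 of the 31 genes than control tissues, and none was called higher. The 7 cover uptake (Cd36, Fabp3 and Angptl4), activation and the carnitine shuttle (Acsl1 and Cpt1b) and electron transfer (Etfb and Etfdh), and their differences lay between -0.55 and -0.25. Of all 20238 genes tested, 6.12% were called lower and 4.97% higher, 11.1% together. Differences were negative for 27 of the 31 genes, against 43.7% of all genes, with a median of -0.17 for the 31 and 0.04 for all genes. In 11 of the 31 all stretch with BIRB796 arrays lay below all control arrays with a value (3 for Ppargc1a), against 8.88% of all genes. All calls were lost when the slide entered as a fixed block, a fit in which 66 genes and 0 of the 31 passed. Treatment and slide are partly confounded in session 3. Slide 7 held control replicates 5 and 6 alone, so in that fit they inform only the spread. Slide 9 held BIRB796 replicates 2, 3 and 4 and stretch with BIRB796 replicate 4, with no control array. When control replicates 5 and 6, which share a slide, were averaged to 1 sample, 3 of the 31 remained called: Acsl1, Cd36 and Etfdh. Leaving out 1 of the 12 arrays at a time gave 2 to 10 called genes of the 31: 2 without control replicate 4 or 5, 3 without control replicate 6 or stretch with BIRB796 replicate 3, 4 without stretch with BIRB796 replicate 4, and 10 without control replicate 7. Etfdh was called in all 12 of these fits, Acsl1 and Cd36 in 11 each, Fabp3 in 7, Cpt1b in 6, and Angptl4 and Etfb in 4 each. Over all genes the same fits called between 498 and 4353, so the count of the 31 moved with the count of all genes.

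**Figure D2:**
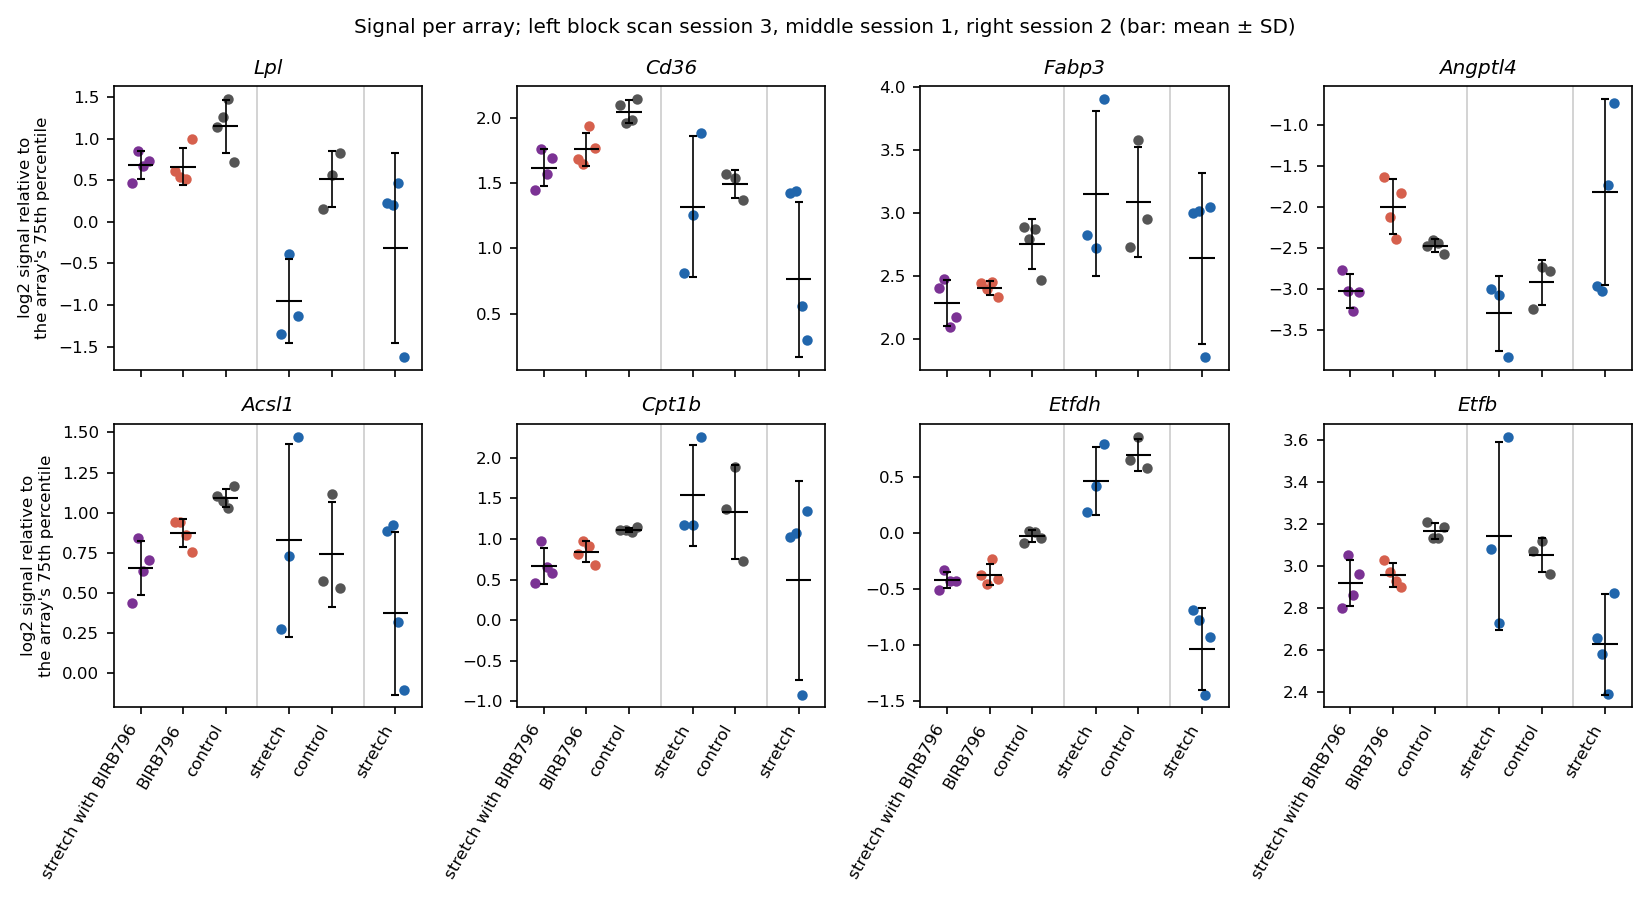
Log2 signal relative to the array's 75th percentile (vertical axis, own scale in each panel) of 8 genes on each array (points) by group and scan session, with mean and SD as bars. In session 2, stretch replicates 4 and 5 count as 1 sample in the bars. For Angptl4 the stretch with BIRB796, BIRB796 and control arrays of session 3 occupy separate ranges, although those of BIRB796 and control nearly meet. For Lpl the 3 stretch arrays of session 1 lie below the 3 control arrays.

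Among the uptake genes, Cd36 measured 1.45, 1.77, 1.57 and 1.70 in the stretch with BIRB796 arrays, 1.69, 1.64, 1.94 and 1.77 in the BIRB796 arrays and 2.10, 1.96, 1.98 and 2.15 in the control arrays of session 3. Every array with inhibitor lay below every control array. The difference between stretch with BIRB796 and control was -0.43 ± 0.09 (SE, 4 arrays each), 1.35-fold lower (adjusted p = 0.0178 by limma). It was -0.65 within slide 6, -0.48 within slide 8 and -0.54 ± 0.11 with the slide as a fixed block (adjusted p = 0.0675). The gene has 2 probes. The brighter, at chr4:13525426-13525485 on the plus strand of build rn4, gave these values, and the other gave a difference of -0.74 in the same direction. That second probe lies at chr4:13522273-13522332, in coding sequence, and is shown with the Fabp3 probe because they read 2 of the genes that fell; no base is marked.
Cd36 second probe: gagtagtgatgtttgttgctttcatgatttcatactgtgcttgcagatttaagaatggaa
Fabp3 probe: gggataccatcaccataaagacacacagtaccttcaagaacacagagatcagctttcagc

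Fabp3 is read by the second of these probes at chr5:149344170-149344229 on the plus strand, also in coding sequence. It measured 2.41, 2.48, 2.09 and 2.17 in the stretch with BIRB796 arrays, 2.45, 2.40, 2.45 and 2.33 in the BIRB796 arrays and 2.89, 2.79, 2.88 and 2.47 in the control arrays of session 3. Control replicate 7 was low and overlapped the stretch with BIRB796 arrays, while all BIRB796 arrays lay below it. Stretch with BIRB796 differed from control by -0.47 ± 0.11 (1.38-fold lower, adjusted p = 0.0266), and by -0.48 and -0.18 within slides 6 and 8. With the slide as a fixed block it was -0.35 ± 0.13 (adjusted p = 0.188). Lpl measured 0.46, 0.86, 0.67 and 0.74 in the stretch with BIRB796 arrays, 0.61, 0.54, 0.51 and 0.99 in the BIRB796 arrays and 1.15, 1.26, 1.48 and 0.72 in the control arrays of session 3, a difference of -0.47 ± 0.16 with an adjusted p = 0.084. For Lpl, control replicate 7 lay among the arrays of both treated groups. Slc27a1, the fatty acid transport protein FATP1, differed by 0.03 ± 0.08.

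Angptl4 encodes a secreted inhibitor of lipoprotein lipase and is a known target gene of the PPARs. Its probe lies at chr7:16261624-16261683 on the minus strand. It measured -2.76, -3.03, -3.26 and -3.03 in the stretch with BIRB796 arrays, -1.64, -2.12, -2.39 and -1.83 in the BIRB796 arrays and -2.47, -2.40, -2.44 and -2.58 in the control arrays of session 3. The 3 groups did not overlap, with BIRB796 highest, control between and stretch with BIRB796 lowest. However, BIRB796 replicate 3 (-2.394) and control replicate 5 (-2.398) were closer together than repeated spots of an array. Stretch with BIRB796 was below BIRB796 by -1.03 ± 0.15 (SE, 4 arrays each), 2.04-fold, with an adjusted p = 0.0346 by limma. In that comparison 28 of 20238 genes were called, 0.138%, of which 5 were lower (0.0247%), and Angptl4 was the 1 called gene of the 31. Within slides the difference was -1.13 on slide 6 and -0.92 on slide 9, and -1.05 ± 0.16 with the slide as a fixed block, at an adjusted p = 0.127. With the 2 groups fitted alone the adjusted p was 0.161. The call was also lost in 8 of 12 fits that left out 1 array, with an adjusted p of up to 0.142: without control replicate 4, 5 or 6, BIRB796 replicate 2 or 4, or stretch with BIRB796 replicate 2, 3 or 4. Against control, stretch with BIRB796 differed by -0.55 ± 0.15 (adjusted p = 0.0439) and BIRB796 by 0.48 ± 0.15 (adjusted p = 0.104), which missed the threshold. The first was -0.41 ± 0.17 with the slide as a block (adjusted p = 0.218), and the second 0.64 ± 0.20 (adjusted p = 0.324). In session 1, without inhibitor, Angptl4 measured -3.0, -3.07 and -3.82 in the stretch arrays, against -3.24, -2.73 and -2.78 in the control arrays of session 1, a difference of -0.38 ± 0.29 (adjusted p = 1) that overlapped between groups. The stretch by BIRB796 interaction, which runs across sessions, was -0.65 ± 0.51 for this gene (adjusted p = 1), so a stretch response that depends on the inhibitor was not shown.

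Of the genes of activation and the carnitine shuttle, Acsl1, the long-chain acyl-CoA synthetase of muscle and fat, measured 0.44, 0.84, 0.63 and 0.71 in the stretch with BIRB796 arrays, 0.94, 0.94, 0.86 and 0.75 in the BIRB796 arrays and 1.11, 1.07, 1.03 and 1.16 in the control arrays of session 3. All control arrays were above all treated ones. Stretch with BIRB796 differed from control by -0.44 ± 0.09 (1.35-fold lower, adjusted p = 0.0151), by -0.67 and -0.43 within slides 6 and 8, and by -0.49 ± 0.11 with the slide as a block (adjusted p = 0.081). Cpt1b measured 0.46, 0.97, 0.66 and 0.58 in the stretch with BIRB796 arrays, 0.81, 0.97, 0.92 and 0.68 in the BIRB796 arrays and 1.12, 1.11, 1.09 and 1.14 in the control arrays of session 3. The 4 control arrays lay close together and above all treated arrays. The difference was -0.45 ± 0.11 (1.36-fold lower, adjusted p = 0.0256), and -0.47 ± 0.13 with the slide as a block (adjusted p = 0.105). This value comes from the brighter of 2 probes, at chr7:127737188-127737247 on the minus strand. The other probe, at chr7:127743961-127744020 in coding sequence, was far dimmer and gave 0.15 for the same comparison, so the 2 probes of Cpt1b disagreed in sign. It is shown for that reason, with no base marked, and Cpt1b was not called with the mean of a gene's probes.
Cpt1b second probe: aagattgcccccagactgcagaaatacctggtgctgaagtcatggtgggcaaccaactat

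The other shuttle genes were closer to control. Cpt1a measured -2.06, -1.61, -1.73 and -2.02 in the stretch with BIRB796 arrays, -1.62, -1.65, -1.78 and -1.67 in the BIRB796 arrays and -1.78, -1.84, -1.99 and -1.78 in the control arrays of session 3, and stretch with BIRB796 differed from control by -0.00 ± 0.10. All 4 BIRB796 arrays were above all 4 control arrays, at 0.17 ± 0.10 (adjusted p = 0.388), and the stretch with BIRB796 arrays overlapped both. BIRB796 replicate 3 (-1.783) and control replicate 7 (-1.785) were closer together than repeated spots of an array. Cpt2, the inner-membrane enzyme, differed by -0.25 ± 0.11 (adjusted p = 0.153). Acot2, a mitochondrial thioesterase, Mlycd, which removes the CPT1 inhibitor malonyl-CoA, and Slc25a20, the carnitine carrier, lay between -0.05 and 0.04.

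The 12 genes of beta oxidation all had negative differences between stretch with BIRB796 and control, from -0.28 for Decr1 to -0.04 for Eci1, and none was called. Their median was -0.15, and 6 of the 12 had an unadjusted p under 0.05, against 13.6% of all genes with such a p and a negative difference. Acadm measured 2.03, 2.24, 2.12 and 2.18 in the stretch with BIRB796 arrays, 2.02, 2.10, 2.30 and 2.15 in the BIRB796 arrays and 2.23, 2.24, 2.24 and 2.31 in the control arrays of session 3. Acadl measured 3.69, 3.86, 3.82 and 3.85 in the stretch with BIRB796 arrays, 3.71, 3.83, 3.91 and 3.73 in the BIRB796 arrays and 3.84, 3.93, 3.97 and 4.00 in the control arrays of session 3. Both differed by little more than the spread within the groups, at -0.11 ± 0.07 and -0.13 ± 0.07. Hadha measured 0.36, 0.77, 0.61 and 0.39 in the stretch with BIRB796 arrays, 0.39, 0.43, 0.67 and 0.52 in the BIRB796 arrays and 0.58, 0.54, 0.53 and 0.76 in the control arrays of session 3, a difference of -0.07 ± 0.11, and its second probe gave 0.13. Those probes differed in sign, and neither was apart from control. Nearest to the threshold were Decr1, which handles double bonds of unsaturated fatty acids (adjusted p = 0.0675), Acads, the short-chain dehydrogenase (-0.25 ± 0.09, adjusted p = 0.0776), and Hadh, the hydroxyacyl-CoA dehydrogenase (-0.26 ± 0.09, adjusted p = 0.0822). Acadvl, Hadh, Hadhb and Echs1 had all stretch with BIRB796 arrays below all control arrays. For Acadvl, Hadhb and Echs1 the gap was smaller than the spread between repeated spots. Acaa1a, Acaa2 and the remaining genes overlapped between these 2 groups.

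Electron transfer held the gene with the smallest p of the 31. Etfdh encodes the dehydrogenase that passes electrons from the electron transfer flavoprotein to ubiquinone. It measured -0.51, -0.33, -0.42 and -0.42 in the stretch with BIRB796 arrays, -0.38, -0.46, -0.24 and -0.41 in the BIRB796 arrays and -0.09, 0.02, 0.01 and -0.05 in the control arrays of session 3. Every array with inhibitor lay below every control array, and the 2 inhibitor groups overlapped each other. Stretch with BIRB796 differed from control by -0.40 ± 0.07 (1.32-fold lower, adjusted p = 0.0103), and BIRB796 alone by -0.34 ± 0.07 (1.27-fold lower, adjusted p = 0.0273). Stretch with BIRB796 against BIRB796 gave -0.05 ± 0.07 (adjusted p = 0.845). Within slide 6 the differences from control were -0.42 for stretch with BIRB796 and -0.29 for BIRB796, and within slide 8 -0.33 for stretch with BIRB796. With the slide as a fixed block they were -0.36 ± 0.08 (adjusted p = 0.0847) and -0.29 ± 0.10 (adjusted p = 0.353). The probe, printed because this gene was called in both comparisons with control, lies at chr2:171008878-171008937 on the minus strand in coding sequence, and no base is marked.
Etfdh probe: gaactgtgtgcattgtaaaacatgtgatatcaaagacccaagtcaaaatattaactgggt

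Etfb, the beta subunit, measured 2.80, 3.05, 2.86 and 2.96 in the stretch with BIRB796 arrays, 3.03, 2.97, 2.93 and 2.90 in the BIRB796 arrays and 3.21, 3.13, 3.13 and 3.19 in the control arrays of session 3. It differed between stretch with BIRB796 and control by -0.25 ± 0.07 (1.19-fold lower, adjusted p = 0.0417), without overlap, and by -0.28 ± 0.09 with the slide as a block (adjusted p = 0.146). Etfa, the alpha subunit, differed by -0.12 ± 0.09 (adjusted p = 0.411) and overlapped. Of the regulators, Ppargc1a measured -4.72, -3.70, -3.87 and -4.04 in the stretch with BIRB796 arrays, -4.02, -3.62, -4.56 and -3.87 in the BIRB796 arrays and -3.55, -3.45 and -3.42 in the control arrays of session 3, where control replicate 6 has no value because its spot was flagged, so 3 control arrays entered. The difference was -0.61 ± 0.26 (adjusted p = 0.153), with all treated arrays below all 3 control arrays. Ppara measured -5.55, -4.64, -4.90 and -4.94 in the stretch with BIRB796 arrays, -5.13, -4.57, -5.25 and -4.94 in the BIRB796 arrays and -4.70, -4.60, -4.63 and -4.62 in the control arrays of session 3, a difference of -0.37 ± 0.19 (adjusted p = 0.217). Pdk4, a PPAR target close to background, measured -7.81, -7.23, -6.74 and -7.30 in the stretch with BIRB796 arrays, -7.06, -7.27, -7.61 and -7.62 in the BIRB796 arrays and -8.08, -7.25, -7.76 and -7.25 in the control arrays of session 3, a difference of 0.32 ± 0.25. Its arrays were scattered in all 3 groups. Esrra, the receptor ERRα, differed by -0.16 ± 0.08 (adjusted p = 0.257).

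**Figure D3:**
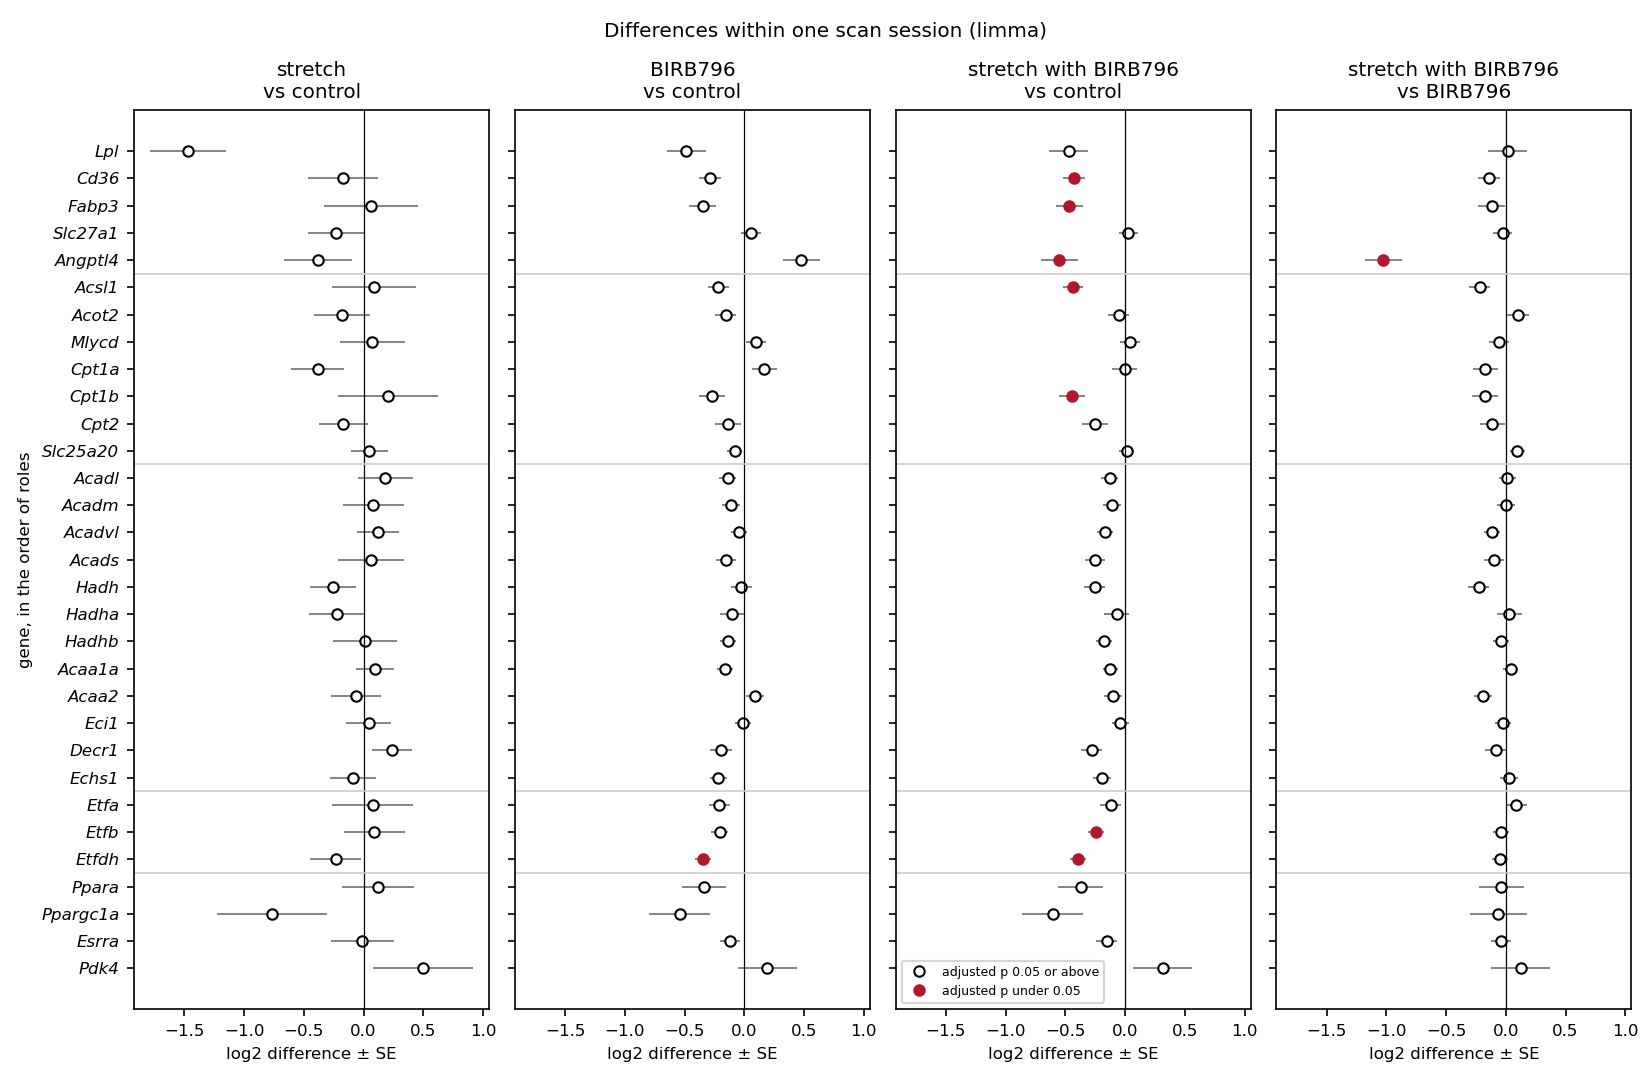
Log2 difference with its SE (horizontal axis) for 31 genes in the 4 comparisons within a session, with an adjusted p under 0.05 as filled red circles. Red circles are 7 for stretch with BIRB796 against control, 1 for BIRB796 against control (Etfdh), 1 for stretch with BIRB796 against BIRB796 (Angptl4) and 0 for stretch against control, where the standard errors are wider.

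For BIRB796 alone few genes of the pathway passed the test. Etfdh was the 1 gene of 31 called, and it was lower, against 2.1% of 20238 genes called lower and 1.47% called higher (723 genes in all, 3.57%). Differences were negative for 25 of the 31, against 54.9% of all genes, with a median of -0.14 for the 31 and -0.02 for all genes. In 8 of the 31 all BIRB796 arrays were below all control arrays with a value, against 7.79% of all genes, and in 2 (Angptl4 and Cpt1a) all were above, against 5.5%. For Angptl4 and Cpt1a the gap was smaller than the spread between repeated spots. Among the 8 lower genes it was also smaller for Cd36, Fabp3, Echs1 and Ppargc1a. Apart from Etfdh, the 8 were Cd36 (-0.29 ± 0.09, adjusted p = 0.0969), Fabp3 (-0.35 ± 0.11, adjusted p = 0.102), Etfb (-0.21 ± 0.07, adjusted p = 0.107), Acsl1, Cpt1b, Echs1 and Ppargc1a. Lpl differed by -0.49 ± 0.16 (adjusted p = 0.113). BIRB796 and control arrays met on slide 6 alone, with 1 array each, so this comparison is largely one between slides. Etfdh lost its call, and the count over all genes was 0, with the slide as a fixed block and with control replicates 5 and 6 averaged. It also lost it, with an adjusted p of up to 0.0983, without control replicate 4, 5 or 6 or BIRB796 replicate 1, 2 or 4. Without control replicate 7, 4 of the 31 were called lower (Acaa1a, Etfdh, Fabp3 and Lpl). Over all genes, the fits that left out 1 array called between 0 and 2672. This comparison and that of stretch with BIRB796 share the same 4 control arrays, so their values are not independent of each other.

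Among the 31 genes, stretch in the presence of BIRB796 gave no call other than Angptl4. Of the 31 differences between stretch with BIRB796 and BIRB796, 22 were negative, against 37.8% of all genes, and their median was -0.04, with 0.05 for all genes. In 3 of the 31 the groups were apart with stretch with BIRB796 lower, against 2.04% of all genes: Angptl4, Hadh (-0.23 ± 0.09, adjusted p = 0.419) and Acaa2, the mitochondrial thiolase (-0.19 ± 0.07, adjusted p = 0.428). For Hadh and Acaa2 the gap between the groups was smaller than the spread between repeated spots. Lpl differed by 0.02 ± 0.16 and Cd36 by -0.14 ± 0.09.

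Stretch with BIRB796 and stretch share no scan session, so they were compared through the control arrays of sessions 1 and 3 in a fit of 21 samples with a session term. Session 2 holds stretch arrays alone, so its session term absorbs their level. They enter this comparison and the interaction only through the spread, and their median SD of 0.49 was the largest of the groups. Of 23500 genes 0 were called by limma, while 2.25% had an unadjusted p under 0.05. Of the 31, Decr1 had such a p, with a difference of -0.52 ± 0.20 (adjusted p = 1). Lpl differed by 1.00 ± 0.52 (adjusted p = 1). For the interaction, the stretch difference with the inhibitor minus that without it, 0 genes were called and 1.37% had an unadjusted p under 0.05. Lpl was the 1 of the 31 that had one, at 1.48 ± 0.52 (adjusted p = 1), with a stretch difference of 0.02 ± 0.16 in session 3 and -1.47 ± 0.32 in session 1.

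**Figure D4:**
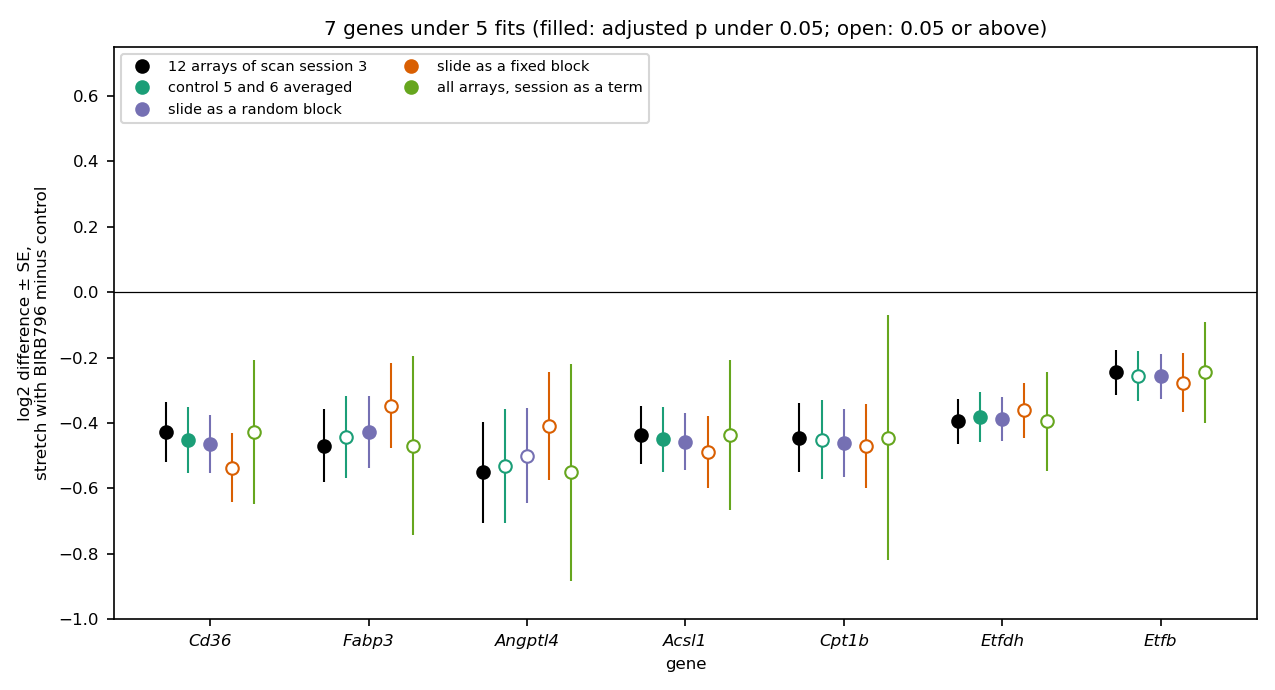
Log2 difference between stretch with BIRB796 and control with its SE (vertical axis) for 7 genes under 5 fits (colours), filled where the adjusted p was under 0.05. All values are negative in all 5 fits, and no gene is filled with the slide as a fixed block or with all arrays and a session term.

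Other genes of the pathway, on lists of uptake and storage, activation, beta oxidation and regulators, had few calls. Between stretch with BIRB796 and control 7 of 68 fell, against 6.12% of all genes, and 1 rose, against 4.97%, with a median of -0.04, against 0.04 for all genes. Acad10, an acyl-CoA dehydrogenase family member, differed by -0.38 ± 0.07 (adjusted p = 0.0125), Pdk2, a pyruvate dehydrogenase kinase, by -0.50 ± 0.11 (adjusted p = 0.0193), Ucp2 by -0.34 ± 0.08 (adjusted p = 0.0256), and Acsl3, an acyl-CoA synthetase, by 0.32 ± 0.09 (adjusted p = 0.0464). For BIRB796 against control 0 of 68 were called by limma, with 17 at an unadjusted p under 0.05 (against 21.5% of all genes), and the smallest p belonged to Ucp2 (-0.32 ± 0.08, adjusted p = 0.0560) and Fabp5, a fatty acid binding protein (-0.64 ± 0.17, adjusted p = 0.0585). For stretch against control 0 of 69 were called, and 0 had an unadjusted p under 0.05. The smallest p belonged to Klf15, a factor that favours fatty acid use (-0.77 ± 0.32), and Fabp4, the fatty acid binding protein of fat cells (-1.13 ± 0.52), both with an adjusted p = 1. Other routes of energy metabolism between stretch with BIRB796 and control had 1 of 23 respiratory chain genes lower, 0 of 11 genes of the citric acid cycle (7 at an unadjusted p under 0.05) and 4 of 16 genes of glycolysis lower. Among all genes 28.5% had an unadjusted p under 0.05 in this comparison. The medians of the 3 lists were -0.11, -0.20 and -0.24, beside -0.17 for the 31 genes and 0.04 for all genes.

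Markers of other cells moved in the same comparison, in which 6.12% of all genes were called lower and 4.97% higher. The marker calls come from the fit without the slide, which is partly confounded with treatment. Between stretch with BIRB796 and control 8 of 16 macrophage markers fell, with a mean level of the list from 1.23 to 1.46 in the stretch with BIRB796 arrays and from 1.35 to 2.26 in the control arrays, and 7 of 15 endothelial markers fell, with ranges from -3.45 to -3.18 and from -2.91 to -2.49. Of 10 smooth muscle and pericyte markers 5 rose, of 14 fibroblast markers 4 rose and 1 fell, and of 3 adipocyte markers tested 1 fell. Of 21 cardiomyocyte markers 1 rose and 1 fell, with a mean level of the list from 4.50 to 4.71 with stretch and BIRB796 and from 4.51 to 4.82 in control. Between BIRB796 and control 6 of 10 smooth muscle and pericyte markers rose, against 1.47% of all genes. The mean level of that list ran from 1.20 to 1.92 in the BIRB796 arrays and from 0.37 to 0.94 in the control arrays. No marker of the other lists was called there, while 16 of 16 macrophage markers and 12 of 15 endothelial markers had negative differences. Their mean levels ranged from 1.31 to 1.77 in the BIRB796 and from 1.35 to 2.26 in the control arrays for macrophages, and from -3.18 to -2.63 in the BIRB796 and from -2.91 to -2.49 in the control arrays for endothelium. With the slide as a fixed block no gene was called between BIRB796 and control, so the 6 smooth muscle and pericyte calls were lost there. Between stretch with BIRB796 and BIRB796 no marker was called, with 15 of 16 macrophage and 12 of 15 endothelial differences negative. None of these lists had a marker at background on all arrays. Macrophages and endothelium also express Cd36, and macrophages can also make Lpl. The part of these cells in the values above was not tested.

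RefSeq promoter windows of build GRCr8, from 250 bases before to 50 after the start, were matched for 27 of the 32 genes, all but Acaa2, Acadl, Cpt1b, Decr1 and Lpl, and searched on both strands for 3 nuclear receptor motifs. The PPAR direct repeat (a pair of AGGNCA half-sites with 1 base of any kind between them) was in 0 of 27 windows and in 0.415% of all 33469. The ERR element TNAAGGTCA was in 0 of 27 and in 1.2% of all. The half-site AGGTCA, whose letters end the ERR element, was in 6 of 27 and in 16.2% of all, the 6 being Acadvl, Echs1, Eci1, Hadhb, Slc27a1 and Ucp3. Of the 7 genes that fell with stretch and BIRB796, 6 had a window and 0 of them held the half-site. Motifs of the core promoter were added after the values were seen. The TATA box TATAAA was in 3 of 27 windows (14.2% of all), the CCAAT box CCAAT in 12 of 27 (37.5% of all) and the GC box GGGCGG in 17 of 27 (33.1% of all). The 250 bases before the start are shown for 3 of the genes that fell, with matches to any of the 6 motifs in capitals. Angptl4, at chr7:15258682-15258931 on the minus strand, holds a GC box and overlapping TATA boxes on both strands. Etfdh, at chr2:167060759-167061008 on the minus strand, holds a GC box, and Fabp3, at chr5:147935875-147936124 on the plus strand, holds no match.
Angptl4 promoter: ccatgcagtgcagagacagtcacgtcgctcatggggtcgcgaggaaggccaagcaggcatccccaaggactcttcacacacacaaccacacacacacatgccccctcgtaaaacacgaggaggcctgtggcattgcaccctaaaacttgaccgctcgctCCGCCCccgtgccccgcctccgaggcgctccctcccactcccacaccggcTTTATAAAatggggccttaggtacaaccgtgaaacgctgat
Etfdh promoter: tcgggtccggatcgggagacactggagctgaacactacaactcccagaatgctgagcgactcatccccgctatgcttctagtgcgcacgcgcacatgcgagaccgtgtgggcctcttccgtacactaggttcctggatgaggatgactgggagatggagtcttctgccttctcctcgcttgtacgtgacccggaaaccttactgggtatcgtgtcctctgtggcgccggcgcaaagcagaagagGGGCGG
Fabp3 promoter: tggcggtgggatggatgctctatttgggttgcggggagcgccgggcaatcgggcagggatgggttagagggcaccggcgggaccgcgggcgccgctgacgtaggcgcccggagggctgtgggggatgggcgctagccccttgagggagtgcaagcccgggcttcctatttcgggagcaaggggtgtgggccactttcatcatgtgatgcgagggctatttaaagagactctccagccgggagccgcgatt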

How the data were processed

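Per the labels' protocols, Cy3-labelled total RNA of each of 22 tissues went on a 1-colour Agilent rat array. Spot intensity in the deposited scanner files is linear and, per the file headers, background-subtracted by Feature Extraction within the array, with no scaling between arrays. A further deposited file gives the authors' log2 values of 27873 probes (column medians from -0.11 to 0.40). After centring per probe, all 22 columns were closest to the scanner values of the same array, so scale and direction are settled, and the baseline is not. It was used as an alternative.

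Control and flagged spots were left out and saturated ones kept. Log2 processed signals were averaged per probe, the 75th percentile of the array's gene spots was subtracted, and the brightest probe of a gene was used. The filter kept probes that were well above background on 3 or more arrays of session 1, or 4 or more of the other fits. Names came from a RefSeq table (17990 probes by accession, 2367 by symbol, 615 by synonym, 9395 as in the file). Groups came from the sample titles, and scan sessions and slides from the headers.

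limma 3.58.1 in R 4.3.3 (lmFit, eBayes, two-sided, Benjamini-Hochberg over all genes, called under 0.05) was run within session 1 for stretch against control and within session 3 for the other comparisons with control or BIRB796. The session 3 fit holds 12 arrays that share 1 estimate of the spread. Stretch with BIRB796 against stretch and the interaction used all arrays with a session term. The number of arrays limits the precision.

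The genes and lists were chosen with earlier results of these data known. All 32 genes are accounted for. Values in every sample are given for the genes called within a session and for Lpl, Cd36, Fabp3, Cpt1a, Cpt1b, Acadm, Acadl, Hadha, Ppara, Ppargc1a, Pdk4, Ucp3 and Angptl4. Of other pathway genes, the 3 called with the smallest p each way are named, or the 2 with the smallest p where none was called. One result on that list is not reported here. Alternatives changed background correction, scaling, filter, probe, table, variance model, samples, session, slide and replicates.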

Additional observations from a re-analysis of the deposited data

Results flagged for a closer look

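In 92 groups of 4 arrays, taken gene by gene in session 3, a single array lay far from the others in 2, which is fewer than the 5% of such groups that chance gives. Hadh measured 3.30 on stretch with BIRB796 replicate 1, while the other 3 arrays of the group lay between 3.57 and 3.58. Decr1 measured 1.91 on stretch with BIRB796 replicate 4, while the other 3 lay between 1.64 and 1.66. For stretch with BIRB796 against control neither gene was called in the main setting. Decr1 was called, and lower, without stretch with BIRB796 replicate 4, the array that stood apart, and also without BIRB796 replicate 3 or control replicate 7. Both genes were called with normexp background and quantile scaling, and with a mean-variance trend and array weights. For BIRB796 against control, Decr1 was called with trend and weights.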

How the results depend on the processing

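The direction of the genes called in session 3 held under all alternatives run, while the calls did not. The number of the 31 genes called for stretch with BIRB796 against control, 7 in the main setting, was 0 with the slide as a fixed block, with all arrays and a session term and with all arrays and no session term, 3 with control replicates 5 and 6 averaged, 11 with normexp background and quantile scaling, and 18 with a mean-variance trend and array weights. Leaving out 1 array gave 2 to 10. For BIRB796 against control, 1 in the main setting, it was 0 with median scaling, no filter, either all-array fit, the slide as a random or fixed block, or control replicates 5 and 6 averaged. It was 2 with the mean of a gene's probes, 3 with normexp and 16 (1 of them higher, Angptl4) with trend and weights, and 0 to 4 with 1 array left out. For stretch with BIRB796 against BIRB796, 1 in the main setting, it was 0 with no filter, the 2 groups alone, either all-array fit or the slide as a fixed block, and 0 to 1 with 1 array left out. For stretch against control, 0 in the main setting, it was 2 with no session term, 6 with the array set as a term, and 0 to 0 with 1 array left out. For stretch with BIRB796 against stretch and for the interaction it was 0 in all settings. The count over all genes also changed between the settings, as given below, so these counts alone are not a result particular to the 31. The cause of the changes was not tested.

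Over all genes the calls ranged from 0 to 1836 for stretch against control (main 0), 0 to 5876 for BIRB796 against control (main 723), 1 to 8120 for stretch with BIRB796 against control (main 2244), 0 to 450 for stretch with BIRB796 against BIRB796 (main 28), 0 to 235 for stretch with BIRB796 against stretch (main 0) and 0 to 2 for the interaction (main 0).

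Replicate numbers of the labels gave no firm pairing: deviations of same-numbered stretch and control arrays correlated at 0.42, -0.05 and 0.40, and those of stretch with BIRB796 and BIRB796 at 0.61, 0.05, 0.08 and 0.09. With the replicate number as a block, 0 of the 31 genes were called in either comparison. No paired analysis was possible for the comparisons with control in session 3 because the groups share 1 replicate number. The brightness of a probe limits what can be read of Pdk4 and Ucp3.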

Other observations

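The 4 stretch arrays of session 2 enter no comparison within a session, and their values stand here. Lpl measured 0.22, 0.21, 0.46 and -1.62 in stretch replicates 4, 5, 6 and 7, Cd36 1.42, 1.44, 0.56 and 0.30, Fabp3 3.00, 3.02, 1.86 and 3.05 and Angptl4 -2.97, -3.02, -1.73 and -0.73. Replicates 4 and 5 were close to each other in these 4 genes, replicate 7 was low in Lpl and Cd36, and replicates 6 and 7 were high in Angptl4. Replicate 7 was the dimmest array, with a 75th percentile signal of 846, against 1823 to 2455 on the others of session 2. It also had the lowest share of probes well above background, 71.8%.

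Of the shuttle, oxidation and electron transfer genes, Acsl1 measured 0.89, 0.92, 0.32 and -0.10, Cpt1a -1.37, -1.35, -1.14 and -2.43, Cpt1b 1.03, 1.07, -0.91 and 1.34, Acadm 2.36, 2.34, 1.52 and 2.75 and Acadl 3.81, 3.84, 3.39 and 4.37. Hadha measured 0.80, 0.84, 0.62 and 1.52, Etfdh -0.69, -0.78, -1.44 and -0.93 and Etfb 2.66, 2.58, 2.39 and 2.87. Replicate 6 was the lowest of the 4 in Cpt1b, Acadm, Acadl and Etfdh, and its cardiomyocyte list had a mean level of 2.73, the lowest of the session. Replicate 7 was the highest in Acadm, Acadl and Hadha. Among the regulators Ppara measured -4.74, -4.72, -6.35 and -6.48, Ppargc1a -3.84, -3.81, -6.16 and -5.43 and Pdk4 -8.30, -7.69, -8.02 and -5.63, with Ucp3 not well above background at -9.77, -9.91, -9.56 and -8.56.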
